A study of Homo sapiens with 6 samples.

Results

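The genes considered here are 10 transcription factor genes of the activator protein-1 (AP-1) group and the immediate early response: FOS, FOSB, FOSL1, FOSL2, JUN, JUNB, JUND, ATF3, MAFF and EGR1. They were selected by gene symbol, and each had 1 row among the 58174 genes measured. Expression was measured by strand-specific polyA RNA-seq in A549, a widely used line of human lung adenocarcinoma cells. Parental A549 cells (Ctrl, n = 3 libraries) were compared with A549 cells in which the MIR21 locus had been deleted by CRISPR/Cas9 between cuts at a pair of guide sites (MIR21-KO, n = 3). Both groups were grown in DMEM with fetal bovine serum and were harvested 48 h after seeding, without any added stimulus. The MIR21-KO cells descend from single sorted cells, and how many clones stand behind the 3 libraries is not stated, so effects of the deletion and of the clone cannot be told apart. The study describes the 3 libraries of a group as independent samples, and the p-values measure the spread between them.

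AP-1 is a dimer of basic leucine zipper proteins. Fos proteins bind DNA mainly together with a Jun protein, whereas Jun proteins also pair among themselves. ATF and Maf proteins can take part in such dimers, and the composition of the dimer sets which genes it activates or holds back. FOS, FOSB and EGR1 are classical immediate early genes, switched on within minutes of growth factor or stress signalling and silent again soon after, whereas FOSL1, FOSL2, JUNB and JUND are also expressed in steadily growing cells. In epithelial tumour cells AP-1 is known to bind the promoter of MIR21 and to drive its transcription, which places these factors upstream of the deleted gene.

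Sequences relevant to these genes are shown before the values. The first pair is mature miR-21-5p, the main product of the deleted gene, and the only stretch in the 3′ UTRs of the 10 genes that matched its seed. In the miRNA, at chr17:59841273-59841294 on the plus strand of GRCh38.p14 (RefSeq), capitals mark the seed, bases 2 to 8. In the stretch of FOSL2, at chr2:28416808-28416836 on the plus strand of GRCh38 (GENCODE 29), capitals mark the heptamer ATAAGCT, which is complementary to that seed.
hsa-miR-21-5p: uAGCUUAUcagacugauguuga
FOSL2 3′ UTR: tatagtagaaaATAAGCTttgtgcatctg
The heptamer lies at base 4371 of the 4864 bases of the longest annotated FOSL2 3′ UTR, and it is not extended to an 8mer. None of the other 9 genes held even a 6mer match in the longest annotated 3′ UTR. Among 19151 protein-coding genes with a 3′ UTR of at least 30 bases, 25.8% held a 6mer, 9.20% a heptamer and 2.53% an 8mer, so a 3′ UTR without a match is the common case. These shares were not matched for length. A 3′ UTR as long as the 4864 bases of FOSL2 offers more places for a match, so they do not show how rare its heptamer is. A match is a description of the sequence and not a measured binding site.

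Promoter windows from RefSeq (GRCh38.p14), running from 250 bases before to 50 bases after a start site, were matched for 9 of the 10 genes in 11 windows, and FOSL1 was not matched. The windows were searched on both strands for the AP-1 motif TGANTCA, the cyclic AMP response element (CRE) TGACGTCA, the variant TGACATCA, the CArG box that binds serum response factor, and the EGR1 motif GCGNGGGCG. Of 35116 promoters of this length, 7.71% held the AP-1 motif, 1.85% the CRE, 2.61% the variant, 1.29% a CArG box and 9.43% the EGR1 motif. The following 3 windows are shown as examples that hold motifs of the factors described here or of the serum response factor upstream of them. Motifs in the windows not shown are listed after the sequences. Capitals mark the AP-1 motif of FOSL2, the CRE variant of JUN, and the EGR1 motif and then both CArG boxes of EGR1.
FOSL2: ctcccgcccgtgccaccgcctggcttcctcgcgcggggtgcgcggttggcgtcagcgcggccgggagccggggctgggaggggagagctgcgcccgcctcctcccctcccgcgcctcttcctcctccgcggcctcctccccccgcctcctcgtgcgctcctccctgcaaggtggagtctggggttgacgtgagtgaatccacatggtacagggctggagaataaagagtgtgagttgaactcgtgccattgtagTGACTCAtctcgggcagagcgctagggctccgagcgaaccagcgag
JUN: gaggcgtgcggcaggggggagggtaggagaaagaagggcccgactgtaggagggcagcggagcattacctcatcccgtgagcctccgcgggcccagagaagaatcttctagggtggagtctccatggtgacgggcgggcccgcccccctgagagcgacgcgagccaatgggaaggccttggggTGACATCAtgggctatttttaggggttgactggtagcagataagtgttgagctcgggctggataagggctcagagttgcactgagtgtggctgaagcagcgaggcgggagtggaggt
EGR1: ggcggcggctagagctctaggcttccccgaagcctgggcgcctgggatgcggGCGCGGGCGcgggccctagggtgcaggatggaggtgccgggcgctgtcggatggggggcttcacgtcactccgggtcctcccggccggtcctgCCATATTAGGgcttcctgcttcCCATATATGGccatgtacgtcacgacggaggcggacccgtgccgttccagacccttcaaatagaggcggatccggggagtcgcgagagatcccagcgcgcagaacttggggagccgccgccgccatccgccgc
The FOSL2 window is chr2:28392608-28392907 on the plus strand, the JUN window chr1:58783998-58784297 on the minus strand, and the EGR1 window chr5:138465229-138465528 on the plus strand. With the start site counted as 1 and the base before it as −1, the AP-1 motif of FOSL2 begins at 5 and the variant of JUN at −67. In EGR1 the EGR1 motif begins at −198 and the CArG boxes at −105 and −83. JUND held a CRE at −200, MAFF a CRE at −54 in 1 of its windows, and ATF3 the variant at −123 in 1 of its windows. The windows of FOS, FOSB and JUNB held none of these letters, which says nothing about binding of these factors elsewhere.

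Values are given as FPKM (fragments scaled to the length of the gene and the size of the library), listed for libraries 1 to 3 of Ctrl and then of MIR21-KO. The length counts all annotated exons of a gene, whichever transcripts are expressed, so levels of different genes can be compared only roughly. Whole reads could be recovered from the FPKM values, and these summed to between 10631667 and 14345209 per library. The library size implied by the FPKM was 1.012 to 1.014 times that sum in Ctrl and 0.950 to 1.030 times in MIR21-KO. The FPKM thus hold a scaling that differs from the plain sum of reads. The replicates of MIR21-KO differed more among themselves than those of Ctrl: a chi-square comparison of their reads gave, per degree of freedom, 2.21 to 3.82 within Ctrl and 5.29 to 20.8 within MIR21-KO, highest between MIR21-KO 1 and 3. Of the epithelial markers KRT8, KRT18, KRT19, EPCAM and CDH1, all were detected. Their levels summed to 1194 to 1288 FPKM in Ctrl and 776 to 1106 FPKM in MIR21-KO. Only CDH1 (E-cadherin) had an FDR under 0.01, and it fell from a mean of 8.18 to 2.86 FPKM (limma FDR 0.000175). KRT8, KRT18 and EPCAM had lower means in MIR21-KO (limma FDRs 0.207, 0.0153 and 0.273), whereas KRT19 had a higher mean (FDR 0.206). Summed leukocyte and endothelial markers stayed at or below 0.369 FPKM in every library, with CD3E at 0, and 5 fibroblast markers summed to 4.80 to 7.02 FPKM, with COL1A2 at 0. MIR21 itself (chr17:59841266-59841337) was listed at 0 in all 6 libraries, so this polyA library type does not check the deletion. VMP1, the gene whose span contains MIR21, was at 75.1 ± 3.83 FPKM in Ctrl and rose to 143 ± 7.18 FPKM (SD, n = 3 each; log2 fold change 0.92, limma FDR 0.000473). In such bulk RNA, fewer cells of a kind and less RNA per cell cannot be told apart.

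Differences were tested with limma on log2(FPKM + 0.1) for all genes that averaged 0.5 FPKM or more, and those with an FDR under 0.01 were called. Of 16006 genes tested, 2568 were called upon MIR21 deletion (16.0%), with 1226 higher (7.66%) and 1342 lower (8.38%). The median log2 fold change of all genes tested was −0.017, so values of the members can be read against a baseline close to 0. The number of calls depended on single libraries: it was 918, 933 and 889 without Ctrl 1, 2 and 3, respectively, and 784 without MIR21-KO 2.

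Of the 10 factors, 8 passed the filter, and FOSB and EGR1 did not. FOS passed only through its MIR21-KO values, since its Ctrl mean was below 0.5 FPKM. Among these 8, 2 rose (JUNB and FOSL2), 1 fell (FOSL1) and 5 were not called (FOS, JUN, JUND, ATF3 and MAFF). The share called was 37.5%, against 16.0% of all genes tested, and this difference was not tested. The groups did not overlap for 6 of the 8, FOS among them, against 48.1% of all genes tested. The median log2 fold change of the 8 was 0.27, with 6 above and 2 below 0, against 7763 above and 8243 below 0 among all genes tested. FOS is counted in these values, and its entry through the MIR21-KO values favours a higher and separate MIR21-KO group. Without Ctrl 1, 2 or 3, or without MIR21-KO 2, 1 in place of 2 factors was called higher, namely JUNB.

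**Figure D1:**
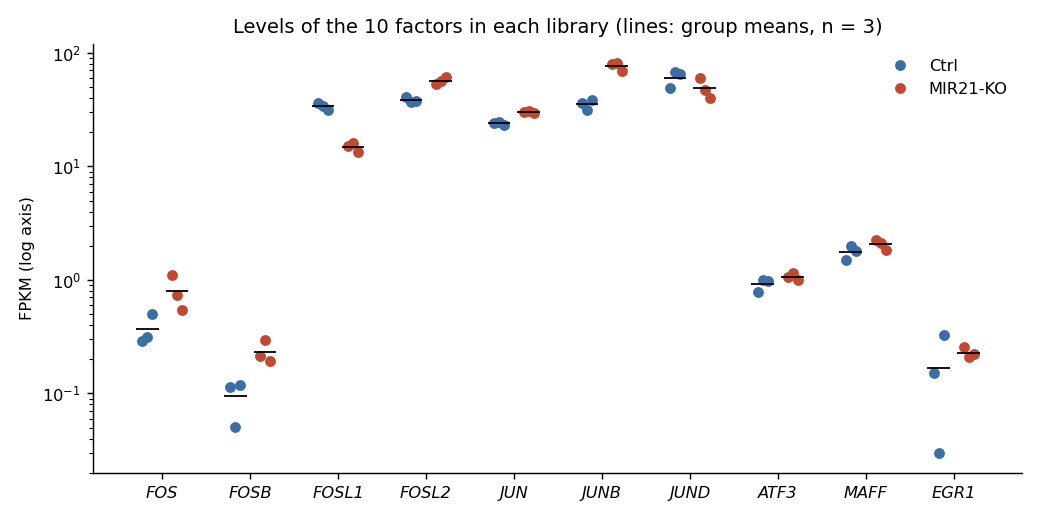
Level of each of the 10 factors in FPKM on a log axis. Points are single libraries (3 Ctrl, 3 MIR21-KO) and lines are group means; FOSL1 is lower and JUNB and FOSL2 are higher in every MIR21-KO library than in any Ctrl library, and FOS, FOSB and EGR1 lie near the bottom of the scale in both groups.

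The 10 levels fell into an abundant and a scarce set in both groups. In Ctrl, JUND was the most abundant at 60.5 ± 9.68 FPKM, followed by FOSL2, JUNB and FOSL1, whose neighbouring ranges overlapped, and by JUN. In MIR21-KO the order was JUNB, then FOSL2 and JUND with overlapping ranges, then JUN and last FOSL1. MAFF and ATF3 lay near 1 to 2 FPKM in both groups. FOS, EGR1 and FOSB followed in Ctrl with overlapping neighbours, and in MIR21-KO the range of FOS overlapped that of ATF3 and the range of FOSB that of EGR1. Thus both the highest and the lowest place among the 5 abundant factors were taken by other genes in MIR21-KO than in Ctrl.

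Among the Fos genes the 2 abundant members moved in opposite directions. FOSL1 (ENSG00000175592, chr11:65892049-65900573, minus strand) encodes FRA-1, a Fos protein that lacks the transactivation domain of c-FOS and is known for its accumulation in RAS-driven and mesenchymal tumour cells. Its level was 35.8, 33.8 and 31.4 FPKM in Ctrl and 15.1, 16.0 and 13.2 FPKM in MIR21-KO. All MIR21-KO libraries thus lay below all Ctrl libraries, with a wide gap. The mean fell from 33.6 ± 2.19 to 14.8 ± 1.41 FPKM (SD, n = 3 each), 2.28-fold, and the log2 fold change was −1.18 ± 0.096 (SE, 95% interval −1.41 to −0.96, limma FDR 0.000373). Between 324 and 859 reads per library stood behind these values. FOSL1 was called lower under all 19 alternatives of processing, with FDRs from 3.97e-05 to 0.00408.

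FOSL2 (ENSG00000075426, chr2:28392448-28417312, plus strand) encodes FRA-2, the closest relative of FRA-1, and is the gene with the seed heptamer and the AP-1 motif shown above. It measured 40.6, 36.7 and 37.4 FPKM in Ctrl and 52.7, 56.7 and 60.6 FPKM in MIR21-KO. The groups were again apart, with every MIR21-KO library above every Ctrl library. The mean rose 1.48-fold, from 38.2 ± 2.103 to 56.7 ± 3.97 FPKM, and the log2 fold change was 0.57 ± 0.083 (95% interval 0.37 to 0.76, limma FDR 0.00337). This call was less stable than that of FOSL1. It was lost without Ctrl 1 (FDR 0.0133), Ctrl 2 (0.0207), Ctrl 3 (0.0225) or MIR21-KO 2 (0.0225), while the log2 fold change stayed between 0.52 and 0.62 over all 19 alternatives.

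FOS (ENSG00000170345, chr14:75278774-75282230, plus strand), the founding member and a strong activator, was scarce in both groups. It measured 0.291, 0.316 and 0.497 FPKM in Ctrl and 1.11, 0.732 and 0.548 FPKM in MIR21-KO, from 11 to 22 reads and 23 to 49 reads per library, respectively. The groups did not overlap, but the MIR21-KO libraries were spread widely and the lowest of them lay close to the highest Ctrl library. The log2 fold change was 0.92 ± 0.37 (95% interval 0.030 to 1.80) and was not called (limma FDR 0.106). No alternative that could be fitted changed this, with FDRs from 0.0425 to 0.229.

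FOSB (ENSG00000125740, chr19:45467995-45475179, plus strand), a further activator of the family, was scarcer still. It measured 0.113, 0.0502 and 0.119 FPKM in Ctrl and 0.211, 0.294 and 0.194 FPKM in MIR21-KO, from 3 to 9 and 14 to 20 reads. Every MIR21-KO library was above every Ctrl library, yet 3 reads were worth 0.0395 to 0.0502 FPKM, so the Ctrl values lie near this floor, which covers counting error only. FOSB did not pass the filter. In the fit of 29384 genes without a filter its log2 fold change was 0.79, with a limma FDR of 0.186. The whole gene lies within the span of ERCC1 on the opposite strand, without shared exon bases, and ERCC1 measured 16.0 to 23.4 FPKM over the 6 libraries.

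Summed over the 4 Fos genes, the level was 76.8, 70.8 and 69.4 FPKM in Ctrl and 69.1, 73.7 and 74.6 FPKM in MIR21-KO, with means of 72.3 ± 3.92 and 72.5 ± 2.98 FPKM. The totals overlapped, whereas their composition did not. FOSL1 made up 46.6%, 47.7% and 45.2% of the Fos mRNA in Ctrl and 21.8%, 21.7% and 17.7% in MIR21-KO. FOSL2 made up 51.8% to 53.9% in Ctrl and 76.3% to 81.3% in MIR21-KO. The ratio of FOSL2 to FOSL1 was 1.136, 1.085 and 1.191 in Ctrl and 3.50, 3.54 and 4.58 in MIR21-KO, and FOS and FOSB hardly contributed in either group. These sums and shares are a description of mRNA levels and were not tested, and protein was not measured in these libraries.

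**Figure D2:**
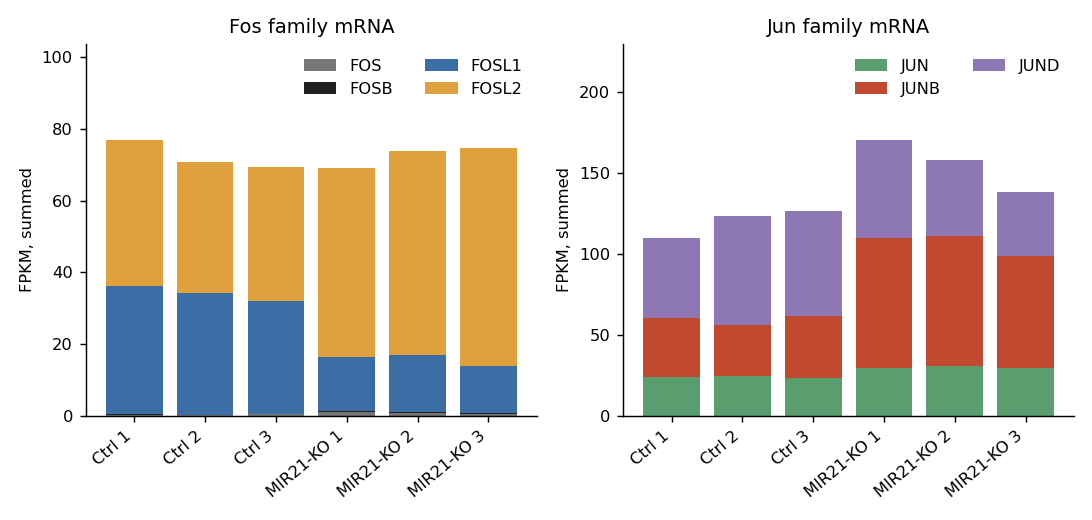
Summed FPKM of the Fos genes (left) and the Jun genes (right) in each library, with 1 stacked colour per gene. The Fos totals of Ctrl (69.4 to 76.8) and MIR21-KO (69.1 to 74.6) overlap while the FOSL1 portion shrinks, and the Jun totals are higher in every MIR21-KO library, where the JUNB portion is larger.

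Among the Jun genes, JUNB (ENSG00000171223, chr19:12791496-12793315, plus strand) had the larger of the 2 rises called among the factors. JUNB is a weaker activator than c-JUN on many promoters and can restrain it. It measured 36.3, 31.4 and 38.1 FPKM in Ctrl and 80.0, 80.5 and 69.0 FPKM in MIR21-KO. The lowest MIR21-KO library was well above the highest Ctrl library. The mean rose 2.17-fold, from 35.3 ± 3.50 to 76.5 ± 6.46 FPKM. The log2 fold change was 1.12 ± 0.105 (95% interval 0.86 to 1.37, limma FDR 0.000656), from 614 to 1983 reads per library. JUNB was called higher under all 19 alternatives, with FDRs from 4.38e-05 to 0.00871. The gene lies wholly within the span of HOOK2, which runs on the opposite strand and shares 259 of the 1820 exon bases of JUNB. HOOK2, named here for this overlap after its values were seen, rose from 3.14, 3.06 and 3.16 FPKM to 6.19, 5.86 and 5.01 FPKM (limma FDR 0.00210), a call that was lost without Ctrl 1 (FDR 0.0126), Ctrl 2 (0.0126), Ctrl 3 (0.0134) or MIR21-KO 2 (0.0166). Whether reads were counted by strand is not given in the sources used here, and without it reads of the shared bases cannot be told apart.

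JUN (ENSG00000177606, chr1:58780788-58784327, minus strand) encodes c-JUN, the main activating partner of the Fos proteins. Its level was 24.0, 24.7 and 23.3 FPKM in Ctrl and 29.8, 30.5 and 29.3 FPKM in MIR21-KO. The libraries of a group lay close together and the groups were apart, but the difference was small, 1.25-fold between means of 24.0 ± 0.743 and 29.9 ± 0.588 FPKM. The log2 fold change of 0.32 ± 0.064 (95% interval 0.16 to 0.47) had a limma FDR of 0.0110 and was not called. JUN passed the threshold of 0.01 without MIR21-KO 3 (FDR 0.00735), with a filter of 5 FPKM (0.00768) and by limma-voom on the recovered reads (0.00943), so its call depended on these choices while its direction did not.

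JUND (ENSG00000130522, chr19:18279760-18281622, minus strand), the family member most tied to resting cells, varied more among replicates than JUN and JUNB. It measured 49.4, 67.3 and 64.8 FPKM in Ctrl and 60.2, 46.9 and 39.7 FPKM in MIR21-KO, so that the groups overlapped. The log2 fold change was −0.31 ± 0.183 (95% interval −0.75 to 0.12) with a limma FDR of 0.235. The mRNA of JUND is 69.7% G and C, and the libraries differed in how they represented such genes. The median deviation of 2324 tested genes with at least 60% GC from their group mean was 0.17 on the log2 scale in MIR21-KO 1 and −0.20 in MIR21-KO 3, where JUND deviated by 0.32 and −0.28. In MIR21-KO 2 JUND deviated by −0.039 against a median of 0.041. In Ctrl 1, 2 and 3 it deviated by −0.278, 0.167 and 0.111 against medians of −0.049, 0.029 and 0.023. The part of GC content in the spread of JUND was not tested. With each library's trends over GC content and length removed, JUND was called lower, with a log2 fold change of −0.51 and an FDR of 0.00232, and with a replicate block added to that removal it was not (FDR 0.0135). It was the only one of the 8 factors whose call at an FDR of 0.01 depended on that removal alone.

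The 3 Jun genes summed to 110, 123 and 126 FPKM in Ctrl and 170.0, 158 and 138 FPKM in MIR21-KO, with means of 120 ± 8.80 and 155 ± 16.1 FPKM. Here the totals did not overlap, in contrast to those of the Fos genes. JUNB made up 33.1%, 25.4% and 30.2% of the Jun mRNA in Ctrl and 47.0%, 51.0% and 50.01% in MIR21-KO. JUND made up 45.04% to 54.5% in Ctrl and 28.7% to 35.4% in MIR21-KO, and the share of JUN overlapped between groups at 17.5% to 21.8%. These sums and shares were not tested either. JUNB is also rich in G and C (64.9%), and with the trends removed its log2 fold change was 0.95 in place of 1.12 (FDR 0.00150). The Jun totals of MIR21-KO 1, 2 and 3 ran in the same order as the deviations of the GC-rich genes in these libraries (0.17, 0.041 and −0.20 on the log2 scale), and the part of the GC trend in the totals and shares was not tested.

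The remaining 3 factors, which answer to stress and growth signals, were scarce and were not called. ATF3 (ENSG00000162772, chr1:212565334-212620777), a stress-induced repressor that pairs with Jun proteins, measured 0.778, 0.990 and 0.977 FPKM in Ctrl and 1.05, 1.15 and 0.992 FPKM in MIR21-KO. The groups stood apart only narrowly, and the log2 fold change of 0.21 (95% interval −0.25 to 0.66) had a limma FDR of 0.446, with 40 to 58 reads per library. The interval leaves room for a moderate difference in either direction.

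MAFF (ENSG00000185022, chr22:38200767-38216511), a small Maf protein that lacks a transactivation domain, measured 1.48, 1.97 and 1.80 FPKM in Ctrl and 2.24, 2.09 and 1.83 FPKM in MIR21-KO. Its groups overlapped, and its log2 fold change was 0.22 (95% interval −0.16 to 0.60) with a limma FDR of 0.328. It shares 4924 of the 15745 bases of its span with PLA2G6 on the opposite strand, without shared exon bases.

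EGR1 (ENSG00000120738, chr5:138465490-138469315), a zinc finger factor that often responds together with FOS, measured 0.150, 0.0296 and 0.326 FPKM in Ctrl and 0.257, 0.208 and 0.221 FPKM in MIR21-KO. It rested on 1 to 14 reads per library, did not pass the filter and overlapped between groups. Without a filter its limma FDR was 0.567.

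**Figure D3:**
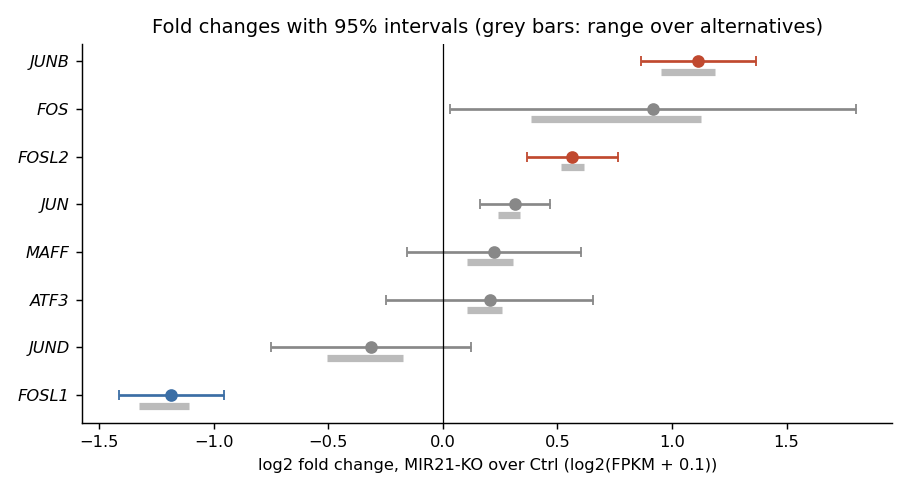
Log2 fold change of the 8 factors tested (MIR21-KO over Ctrl, on log2(FPKM + 0.1)), with 95% limma intervals. Red and blue points were called higher or lower at an FDR under 0.01, grey points were not, and the grey bars below them span the alternatives in which the gene was tested (17 for FOS, 18 for ATF3 and MAFF, 19 for the others); no bar crosses 0, and the widest interval is that of FOS (0.030 to 1.80).

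The genes whose pattern was most like that of FOSL1, the called factor with the smallest p-value, were found by the root-mean-square difference of centred log2 values over the 6 libraries, among 11718 other protein-coding genes. These were AURKA (difference 0.059), a mitotic kinase, MCM10 (0.064), a replication factor, and WDR62 (0.067), a spindle pole protein. AURKA fell from 62.3 ± 1.86 to 27.8 ± 1.62 FPKM, MCM10 from 13.4 ± 0.599 to 6.01 ± 0.210 FPKM and WDR62 from 9.57 ± 0.125 to 4.25 ± 0.321 FPKM. The likeness is a description over 6 libraries in 2 groups, which many genes with a similar fold change share.

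Further genes around AP-1 were examined in lists, with the share of all genes called (16.0%) as the background. The lists were chosen with earlier results of these data known. Their counts are therefore a description, and their difference from that background was not tested. Of 10 other AP-1 and Maf partners, 8 were tested, 1 rose and none fell, with a median log2 fold change of 0.021. The gene that rose was MAF, a large Maf activator, which passed the filter only through its MIR21-KO values. It measured 0.417, 0.347 and 0.472 FPKM in Ctrl and 1.47, 1.92 and 2.22 FPKM in MIR21-KO (log2 fold change 1.94 ± 0.232, limma FDR 0.00158). Without MIR21-KO 2 no partner was called (MAF at an FDR of 0.0148), although 2 had an unadjusted p under 0.05. BATF was listed at 0 in all libraries.

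Of 28 other immediate early genes, 23 were tested, 8 rose and 1 fell, and the median log2 fold change was 0.36, above the −0.017 of all genes. The largest rises among the called genes were those of BHLHE40, a transcriptional repressor, and CTGF, a secreted matricellular protein. BHLHE40 measured 30.7, 27.0 and 31.0 FPKM in Ctrl and 66.1, 67.8 and 72.1 FPKM in MIR21-KO (log2 fold change 1.21 ± 0.083, limma FDR 0.000202). CTGF measured 9.67, 9.82 and 9.57 FPKM in Ctrl and 19.8, 22.1 and 21.5 FPKM in MIR21-KO (1.12 ± 0.073, FDR 0.000170). Both were thus about as much higher as JUNB. KLF4, a zinc finger factor of epithelial differentiation, was the gene that fell, from 1.57, 1.83 and 2.30 FPKM to 0.542, 0.491 and 0.569 FPKM (−1.64 ± 0.205, FDR 0.00181). Its call was lost without Ctrl 2 (FDR 0.0118), Ctrl 3 (0.0130) or MIR21-KO 2 (0.0113).

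The other genes of that list that rose were DUSP1, DUSP5, DUSP6, SRF, PHLDA1 and CSRNP1, named here after their values were seen. The DUSP genes encode phosphatases that switch off MAP kinases, and SRF is the factor that binds the CArG box. DUSP1 measured 71.7, 66.0 and 65.3 FPKM in Ctrl and 147, 144 and 147 FPKM in MIR21-KO (limma FDR 0.000186), the highest level in the list. NR4A2, an orphan nuclear receptor also named after its values were seen, passed the filter only through its MIR21-KO values. It had a log2 fold change of 1.16 ± 0.382 between means of 0.420 and 0.991 FPKM and was not called (FDR 0.0589). EGR2, EGR3 and EGR4 were listed at 0 in all Ctrl libraries, and MYC was nearly level at 38.7 and 39.2 FPKM (log2 fold change 0.020, FDR 0.862). The count of 9 calls was 5 without Ctrl 1, 3 without Ctrl 3 and 4 without MIR21-KO 2. Of 6 heat shock genes listed as a sign of handling stress, 3 were called lower and none higher (50%, against 16.0% of all genes tested). The log2 fold change was negative for 5 and positive for 1, HSPB1, named after its values were seen. HSPB1 had means of 264 FPKM in Ctrl and 396 FPKM in MIR21-KO and was not called (limma FDR 0.0439). With HSPB1 included, the 6 genes summed to 740 to 786 FPKM in Ctrl and 637 to 851 FPKM in MIR21-KO. The part of the heat shock genes in these results was not tested.

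Upstream of the factors, 24 kinases and transcription factors of the MAP kinase and serum response routes were listed and 23 tested, with a median log2 fold change of −0.080. Only MKL1, an actin-regulated coactivator of SRF, was called, and it rose from 15.1, 14.1 and 14.8 FPKM to 20.4, 21.9 and 19.2 FPKM (0.48 ± 0.077, limma FDR 0.00457). That single call was lost without Ctrl 1, 2 or 3 or MIR21-KO 2, with FDRs of 0.0208, 0.0251, 0.0251 and 0.0271, respectively. At the mRNA level 22 of the 23 were thus not called, which does not address the phosphorylation by which these kinases act.

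**Figure D4:**
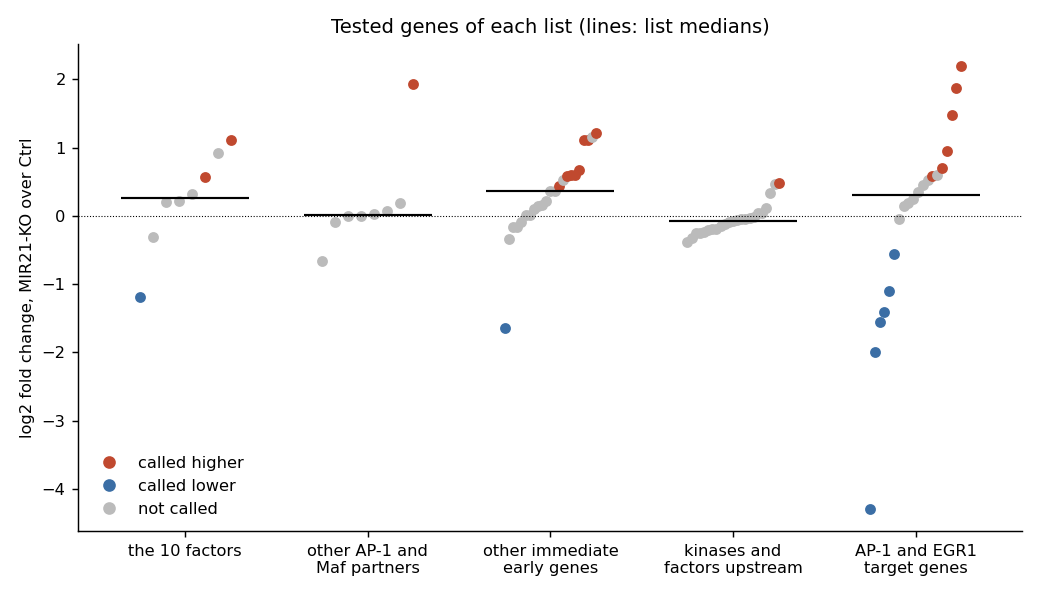
Log2 fold changes (MIR21-KO over Ctrl) of the genes tested in each list, sorted within the list. Red was called higher, blue lower and grey not called, and lines are list medians; the known targets spread from −4.30 (AREG) to 2.19 (IL6), whereas the upstream genes stay close to 0.

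The list of known AP-1 and EGR1 target genes was split. Of 25 genes, 20 were tested, 6 rose and 6 fell, with a median log2 fold change of 0.30. The count of 12 calls was 8 with a replicate block, 10 without a filter on low values and 9 to 15 with 1 library left out. The largest rises were those of the cytokines IL6 and IL11. IL6 measured 1.139, 1.62 and 1.24 FPKM in Ctrl and 5.85, 6.91 and 6.45 FPKM in MIR21-KO (log2 fold change 2.19 ± 0.155, limma FDR 0.000237). IL11 measured 20.4, 21.97 and 21.6 FPKM in Ctrl and 85.7, 81.6 and 69.5 FPKM in MIR21-KO (1.88 ± 0.096, FDR 7.88e-05). In both cases the groups were far apart.

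The largest falls among these targets were those of AREG and EREG, ligands of the EGF receptor. AREG measured 31.6, 37.8 and 31.0 FPKM in Ctrl and 2.09, 1.49 and 1.31 FPKM in MIR21-KO (−4.30 ± 0.177, limma FDR 4.19e-05). EREG measured 24.98, 22.7 and 22.2 FPKM in Ctrl and 4.66, 5.77 and 7.04 FPKM in MIR21-KO (−2.00 ± 0.151, FDR 0.000291). These 4 genes kept their calls under every alternative in which they were tested. Other targets called, named after their values were seen, included VEGFA, PLAUR and NAB2 among the rises and CCND1, HMGA1 and AXL among the falls. The matrix metalloproteinase genes MMP1, MMP3, MMP9, MMP10 and MMP13, classical AP-1 targets, had means under 0.5 FPKM over all libraries and were not tested.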

How the data were processed

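PolyA RNA-seq data of 3 Ctrl and 3 MIR21-KO libraries were analysed, grouped by their titles. The authors deposited FPKM values per gene with their own log2 fold changes, p-values and FDRs, of which only the FPKM were used here. The submitters' processing notes name cutadapt 1.14, HISAT2 2.1.0, SAMtools 1.5, featureCounts 1.5.3, edgeR 3.18.1 and build hg38, without the settings. All FPKM values could be turned back into whole reads (tolerance 0.01 read), 10631667 to 14345209 per library, and 1 read on 1 kb was worth 0.0731 to 0.0930 FPKM.

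Genes that averaged 0.5 FPKM or more were tested on log2(FPKM + 0.1), which understates changes of low genes, with limma 3.58.1 (R 4.3.3; trend and robust fitting, no covariate, two-sided, Benjamini-Hochberg FDR under 0.01). Gene identifiers were matched to GENCODE 29 for 57836 of 58174 genes. Python 3.11.15 with matplotlib 3.10.9 was used for the figures. The test was tested on simulated data with 200 of 16025 genes changed 2-fold for this comparison. Of these, limma recovered 165 with 7 false calls and limma-voom 198 with 2. The simulated reads had the same spread in every library and no GC trend, and the changed genes were well covered by reads. The real libraries differed in these respects, so the counts do not give the error rate in the real data.

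The members and lists were chosen with earlier results of these data known. Named were all members, the 2 largest called rises and falls of each list, genes at or near 0, the 3 genes most like FOSL1, MIR21 and VMP1, and exceptions are marked. Some listed genes are not reported here by name. The 19 alternatives covered scaling, pseudocount, filter, limma-voom, fitting, FDR, a replicate block, GC and length trends (lowess, span 0.3) and leaving out each library.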

Additional observations from a re-analysis of the deposited data

How the results depend on the processing

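The directions of the 8 factors tested were the same under all alternatives that could be fitted. The 2568 genes called became 5114 at an FDR of 0.05, 3956 with the GC and length trends removed, and 784 to 3418 with 1 library left out. Replicate numbers did not pair the libraries (correlations of the deviations −0.171, −0.018 and −0.017). With a replicate block 651 genes were called, 649 of them among the 2568. Under that block 1 factor was called higher (FOSL2 was lost at an FDR of 0.0273), no partner (2 with an unadjusted limma p under 0.05), 3 immediate early genes and no upstream gene (2 with an unadjusted p under 0.05), and with the block and the trends removed 1 factor higher (FOSL2 at 0.0144, and JUND not called lower at 0.0135), 5 immediate early genes and 0 upstream genes (3 with an unadjusted p under 0.05). With the trends alone removed, 2 factors were called lower and 2 upstream genes were called. At an FDR of 0.05, 2 partners and 2 upstream genes were called. With the 5 FPKM filter 0 of the 3 partners left were called (0 at an unadjusted limma p under 0.05), and without trend or robust fitting 0 upstream genes were (3 unadjusted). With 1 library left out, 1 to 3 factors were called higher, 0 to 1 partners, 3 to 9 immediate early genes and 0 to 2 upstream genes. The cause of these shifts was not tested, beyond fewer libraries or genes in a fit. FOS, FOSB and EGR1 had the least depth of the 10 factors, with 1 to 49 reads per library.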
